A study of Danio rerio with 6 samples.

Results

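Complement is a system of plasma and tissue proteins that tags microbes, dying cells and debris. The classical pathway starts when C1q binds its target and its serine proteases C1r and C1s cleave C4. The alternative pathway amplifies cleavage of C3 through factor B and factor D. Both converge on C3, whose fragments mark surfaces for phagocytes, and then on the terminal components C5 to C9, which assemble a membrane pore. In the mammalian brain, C1q is made mainly by microglia, and complement is best known there for the tagging of synapses and the response to damage.

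Transcripts coding for 10 complement components were followed in the adult zebrafish telencephalon: the C1q chains *c1qa*, *c1qb* and *c1qc*, *c4b*, *c3a.1*, the alternative pathway proteases *cfb* and *cfd*, the terminal components *c6* and *c7a*, and the C1 inhibitor *serping1*. They were chosen by gene name from the 32520 genes of each count file. For 9 of them the name stood in a table of Ensembl gene names, and *c6* is ENSDARG00000093052, which the supplementary material of the study names *c6* and the table of names *c6.1*. Per the study, that material lists RNAs whose levels had changed significantly in these same data. A gene matched only there had thus been found changed before it was tested here.

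Polyadenylated RNA had been sequenced as 1 library per hemisphere from 3 injured and 3 control telencephalic hemispheres at 5 days post lesion (dpl). In the injured group, a syringe needle had been inserted into the hemisphere, and the control group, called healthy in the labels, is the untreated contralateral side per the study, so that hemispheres of sham-operated or unlesioned fish were not analysed here. Strain, sex and age of the fish are not given in the sources used here. The replicate numbers run from 1 to 3 in each group, and residuals of libraries with the same number correlated, so that the numbers are treated as pairs in an alternative fit.

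Each library held between 59675791 and 91663196 reads on genes. Levels are given as counts per 1e6 reads on genes (CPM) after TMM normalization, and differences as the log2 fold change (log2FC) of injured over control hemispheres with its standard error (SE) from edgeR's quasi-likelihood test. adjp is the *p*-value adjusted by Benjamini-Hochberg over the 22558 genes tested, and a gene was called at an adjp below 0.05. The study describes the 3 libraries of a group as biological replicates. The telencephalic markers *emx1*, *emx2* and *emx3* were present in all 6 libraries, with a summed level of 80.5 to 97.5 CPM in injured and 75.7 to 79.7 CPM in control hemispheres. Injured replicates 1 and 3 stood apart, since 7 pineal and photoreceptor markers summed to 91.1 and 207 CPM there, against 7.31 CPM in injured replicate 2 and 6.31 to 8.50 CPM in control hemispheres. Members were therefore also fitted without injured replicates 1 and 3. That fit leaves injured replicate 2 as the only injured library, so for single genes only its log2FC is given. Its counts of called genes rest on that 1 library and cannot show whether a rise holds without injured replicates 1 and 3.

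Levels of transcripts of 6 of the 10 components were increased upon injury, those of all 3 C1q chains, *c4b*, *c3a.1* and *c6*, by 2.16-fold to 3.76-fold. Of these, *c6* had been matched through the study's list of changed RNAs, so its call is not an independent result. The levels of *c7a*, *cfd* and *serping1* did not pass the test, and *cfb* was too scarce to be tested. In the edgeR fit with replicate number as a block, *c7a* was called higher too (adjp = 0.0317), as were 19.9% of all genes. None of the 9 tested was called lower. Of all genes tested, 11.6% were called higher and 4.82% lower, 16.5% in all. In RNA of a whole hemisphere, more cells of a type and more RNA per cell cannot be told apart. The median log2FC of the 9 components tested, *c6* included, was 1.49, against -0.0038 for all genes. For the same 6 components the 3 injured libraries all exceeded the 3 controls, as for 20.3% of all genes tested, while 35.8% of genes had no overlap in either direction. In the fit with injured replicate 2 as the only injured library, their log2FC was 0.70 for *c3a.1* and 1.475 to 2.177 for the others. The count of calls from that fit is no test of these components, since its injured group has no replicates. Without injured replicates 1 and 3, 5 components were called higher, all but *c3a.1*, where 6.22% of genes were called higher.

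**Figure D1:**
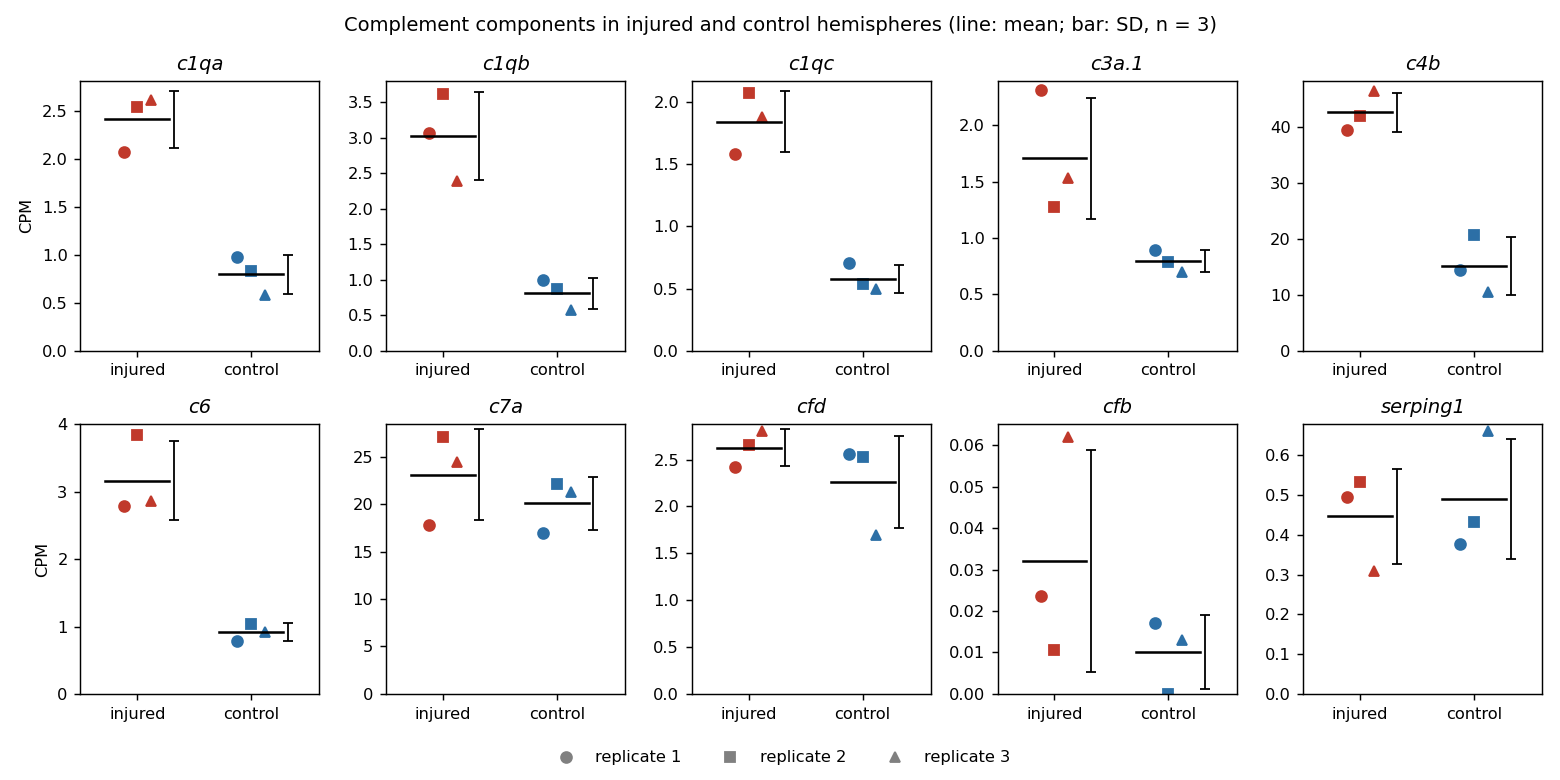
Level of each complement component in CPM (vertical axis, linear and starting at 0, with a scale of its own in each panel) in injured and control hemispheres. Points are single libraries with 1 symbol per replicate number, the horizontal line is the mean and the bar beside it the SD of 3 libraries. For the C1q chains, *c3a.1*, *c4b* and *c6*, all injured libraries lie above all control libraries, and for *c7a*, *cfd*, *cfb* and *serping1* the groups overlap.

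C1q, the recognition molecule of the classical pathway, is assembled from A, B and C chains. In the genome assembly GRCz12tu of RefSeq, *c1qb*, *c1qc* and *c1qa* lie next to each other with no annotated gene between them. The level of *c1qa* (ENSDARG00000044613) was 2.08, 2.55 and 2.62 CPM in injured replicates 1, 2 and 3, against 0.977, 0.828 and 0.583 CPM in control replicates 1, 2 and 3. For *c1qb* (ENSDARG00000044612), it was 3.07, 3.63 and 2.39 CPM in the injured and 0.994, 0.864 and 0.570 CPM in the control libraries. *c1qc* (ENSDARG00000095627) was at 1.58, 2.07 and 1.88 CPM in the injured and at 0.703, 0.540 and 0.492 CPM in the control libraries. For all 3 chains the lowest injured library was above the highest control library, and control replicate 3 was the lowest of the 6 libraries. These are low levels. The 3 control libraries together held 171 reads on *c1qa*, 174 on *c1qb* and 124 on *c1qc*.

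The log2FC was 1.61 (SE 0.22, adjp = 0.0047) for *c1qa*, 1.91 (SE 0.25, adjp = 0.00409) for *c1qb* and 1.68 (SE 0.21, adjp = 0.00324) for *c1qc*. Omitting any single library gave an edgeR adjp of 0.00736 to 0.0193 for these chains. Within pairs of the same replicate number, the smallest differences were those of replicate 1, with log2 ratios of 1.09 for *c1qa*, 1.63 for *c1qb* and 1.17 for *c1qc*. In the other pairs the chains differed by 1.62 to 2.17 on the log2 scale.

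The chains kept similar shares of the C1q transcripts. *c1qb* made up 41.4% ± 5.90 of the summed CPM of the chains in injured and 36.8% ± 2.05 in control hemispheres (SD, n = 3 each). The injured libraries differed among themselves, with 45.6% and 44.0% in replicates 1 and 2 and 34.7% in replicate 3. The share of *c1qc* was 25.3% ± 1.88 in injured and 26.8% ± 2.90 in control hemispheres (SD, n = 3 each). For each chain the means differed by less than the SD of the injured libraries. The shares are not corrected for transcript length.

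Markers of microglia and macrophages were higher alongside the C1q chains, as were most markers of several other cell types given below. Of 16 markers of microglia and macrophages, 14 were called higher upon injury and none lower. Of all genes tested, 11.6% were called higher and 4.82% lower. The summed level of the list was 1595 to 2170 CPM in injured and 438 to 528 CPM in control hemispheres. Among the called markers, *spi1b* had been matched only through the study's list of changed RNAs. *csf1ra* and *csf1rb*, which code for receptors that microglia need to develop and survive, summed to 71.7, 66.2 and 63.7 CPM in injured and 36.3, 31.5 and 28.8 CPM in control replicates 1, 2 and 3. The lysosomal enzyme gene *hexb* and the galectin gene *lgals9l1* were the markers that were not called.

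Relative to these markers, the result for C1q depended on the marker taken. The log2 ratio of the summed C1q chains to the summed microglia list was -7.97 ± 0.0961 in injured and -7.85 ± 0.23 in control hemispheres (SD, n = 3 each), a difference of -0.12 (two-sided exact permutation test, p = 0.7). The list is dominated by *apoeb*, which codes for an apolipoprotein and made up 73.3% to 76.1% of the sum in injured and 49.6% to 55.8% in control libraries. Without *apoeb*, left out after these values had been seen, the difference was 0.78, with no overlap of the groups. The difference was 0.69 relative to *csf1ra* and *csf1rb* and 0.48 relative to the geometric mean of the list, with no overlap in either. In these 3 cases the exact permutation test gave p = 0.1, the smallest value that 3 against 3 samples allow.

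**Figure D2:**
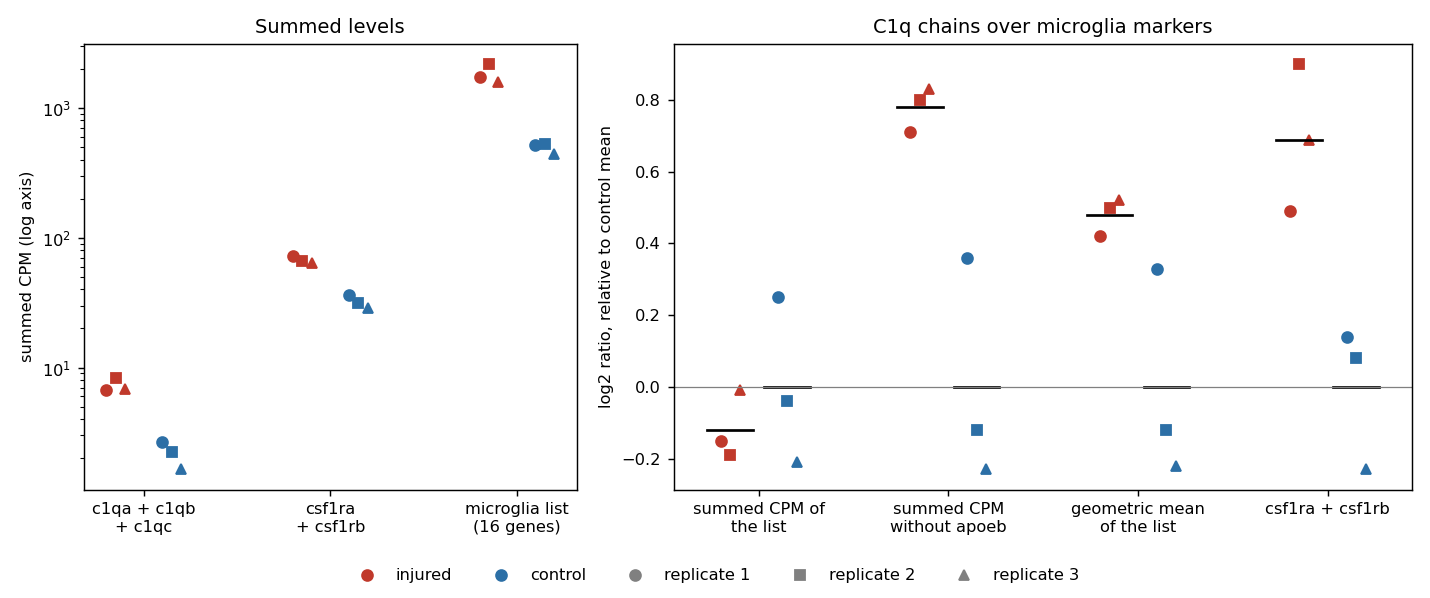
Left, summed CPM (log axis) of the 3 C1q chains, of *csf1ra* and *csf1rb*, and of the 16 microglia markers in each library, injured in red and control in blue. Right, log2 ratio of the summed C1q chains to 4 summaries of microglia markers, with the control mean set to 0 and the mean of each group as a line. The injured libraries lie above the control libraries for each ratio but that to the whole summed list, where the groups overlap.

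The 5 genes with the profile most like that of the C1q chains, outside the lists used here, were *ECE1*, *si:dkey-4c23.5*, *FSTL1*, *lgals3bp.1* and *ssuh2.4*. Their Euclidean distances from the mean profile of the chains, in log2 CPM centred per gene over the 6 libraries, were 0.216 to 0.322. Those of the chains, which themselves make up that mean, were 0.244 to 0.416. The 5 genes were picked as the nearest in these same libraries, and their log2FC was 1.51 to 1.71. Whether they share more with the C1q chains than the difference between the groups was not tested. *lgals3bp.1*, which codes for a galectin-3 binding protein, was the most abundant, at 322 ± 51.9 CPM in injured and 99.7 ± 13.1 CPM in control hemispheres (SD, n = 3 each).

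C4 is cleaved by C1s, and its larger fragment binds covalently to the target. Transcripts of *c4b* (ENSDARG00000038424) were at 39.6, 42.0 and 46.5 CPM in injured replicates 1, 2 and 3, against 14.5, 20.6 and 10.5 CPM in control replicates 1, 2 and 3. The groups did not overlap. The injured libraries lay close to each other, while the control libraries differed more, with replicate 2 the highest and replicate 3 the lowest. The log2FC was 1.49 (SE 0.22, adjp = 0.0061). Omitting single libraries moved it within 1.28 to 1.78. The paralogous gene *c4* (ENSDARG00000015065) rose as well, to 132 ± 3.57 CPM in injured hemispheres, against 60.1 ± 9.39 CPM in control hemispheres (SD, n = 3 each), a log2FC of 1.14 (SE 0.11, adjp = 0.00154). The log2 ratio of *c4b* to *c4* was 0.40 higher in injured hemispheres, but the groups overlapped (two-sided exact permutation test, p = 0.2).

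Among the other genes of the classical and lectin pathways, *c1s*, the protease that cleaves C4, rose to 4.64 ± 0.30 CPM in injured hemispheres, against 2.24 ± 0.577 CPM in control hemispheres (SD, n = 3 each), a log2FC of 1.05 (SE 0.19, adjp = 0.0116). Its log2FC was 1.16 without injured replicates 1 and 3. *c1r*, the protease that activates C1s, had a log2FC of 0.02 (SE 0.29, adjp = 0.983) at no more than 0.224 CPM in any library. *masp1*, a protease of the lectin pathway, had a log2FC of 0.11 (SE 0.23, adjp = 0.815). Of the lectin genes, *hbl1* had a log2FC of 0.42 (SE 0.49, adjp = 0.635). The lectin genes *mbl2*, *hbl2* and *hbl4* and the protease gene *masp2* were too scarce to be tested.

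The C1 inhibitor *serping1* (ENSDARG00000058053) blocks C1r and C1s. It was scarce, at 0.496, 0.533 and 0.310 CPM in injured replicates 1, 2 and 3, against 0.377, 0.432 and 0.661 CPM in control replicates 1, 2 and 3. The groups overlapped, and the log2FC was -0.13 (SE 0.32, adjp = 0.839). Its sign depended on replicate 3, in which the injured library was the lowest and the control library the highest of the 6. The log2FC was 0.07 without injured replicate 3 and 0.15 without control replicate 3.

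**Figure D3:**
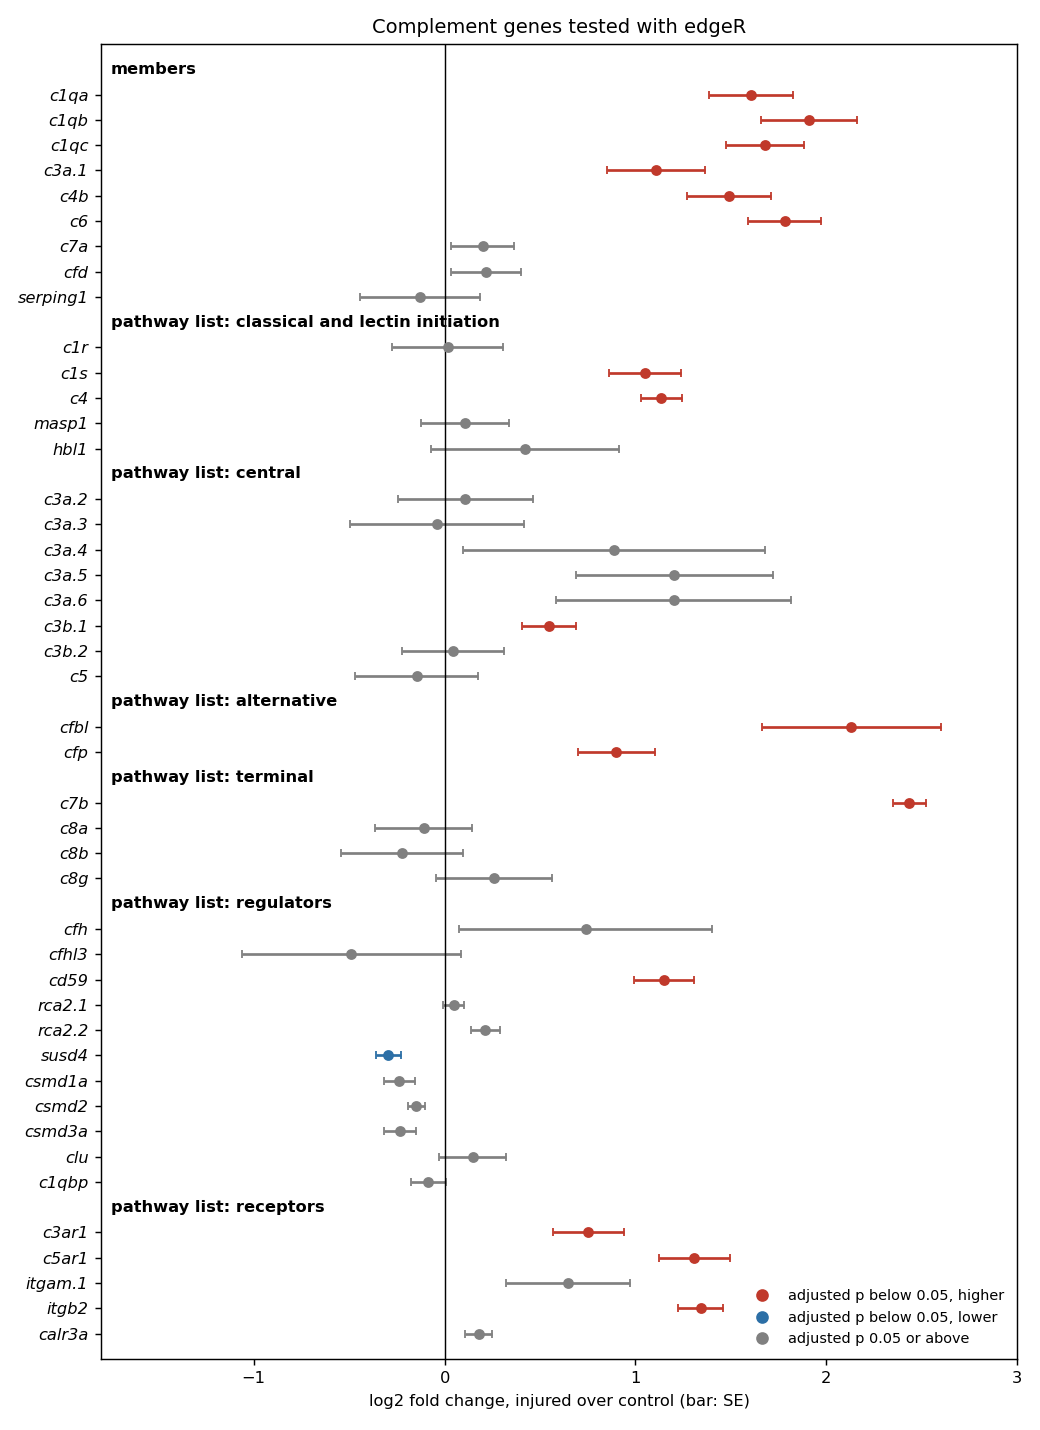
log2 fold change of injured over control hemispheres (horizontal axis, bar: SE of edgeR) for the 9 components tested and the 35 tested genes of the list of other complement genes, grouped by role. Red and blue points are genes called higher and lower, and grey points are genes at an adjp of 0.05 or above. In the list, 10 genes are red, with *c7b* the farthest from 0 at 2.43, and 1, *susd4*, is blue.

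C3 is the central protein at which all pathways meet, and zebrafish carry several copies of its gene. The level of *c3a.1* (ENSDARG00000012694) was 2.31, 1.28 and 1.53 CPM in injured replicates 1, 2 and 3, against 0.891, 0.792 and 0.699 CPM in control replicates 1, 2 and 3. All injured libraries were above all control libraries, and injured replicate 1 was the highest. The log2FC of 1.11 (SE 0.26) was past the threshold with an adjp of 0.0273. In edgeR without 1 library, the adjp was 0.0527 and 0.0550 without injured replicates 1 and 3, and 0.0671, 0.0765 and 0.0985 without control replicates 1, 2 and 3. Without both injured replicates 1 and 3, the log2FC was 0.70.

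Among other copies of C3, *c3a.4*, *c3a.5* and *c3a.6* varied strongly between replicate numbers. *c3a.6* (ENSDARG00000043719) was at 6.49, 2.02 and 2.45 CPM in injured replicates 1, 2 and 3, against 3.03, 0.984 and 0.829 CPM in control replicates 1, 2 and 3. Replicate 1 was the highest in both conditions, and control replicate 1 exceeded injured replicates 2 and 3. For *c3a.4* (ENSDARG00000093198), replicate 1 was instead the lowest in both conditions, with 1.098, 3.34 and 4.12 CPM in the injured and 0.154, 2.46 and 1.93 CPM in the control libraries. *c3a.5* was also lowest in replicate 1 of either condition, at 0.213, 0.491 and 0.666 CPM in the injured and 0.0857, 0.264 and 0.220 CPM in the control libraries. Within each pair, all 3 copies were higher in the injured hemisphere. How many of all genes were higher in every pair was not counted.

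None of these copies was called in the fit without pairs, with an adjp of 0.239 for *c3a.6*, 0.518 for *c3a.4* and 0.166 for *c3a.5*. The edgeR fit blocked on replicate number called each of them, with log2FC of 1.21 (SE 0.14, adjp = 9.52e-04) for *c3a.6*, 1.09 (SE 0.32, adjp = 0.0379) for *c3a.4* and 1.24 (SE 0.27, adjp = 0.0123) for *c3a.5*. This blocked fit called 36.1% of all genes tested, with 19.9% of all genes higher and 16.2% lower. *c3b.1* rose to 10.3 ± 1.82 CPM in injured hemispheres, against 7.05 ± 0.747 CPM in control hemispheres (SD, n = 3 each), a log2FC of 0.55 (SE 0.14, adjp = 0.0394). Its adjp in edgeR was 0.0518 to 0.115 with any 1 of the 6 libraries left out. *c3b.2* had a log2FC of 0.04 (SE 0.27, adjp = 0.938), with the sign reversed without injured replicate 1 or 3 or control replicate 2. The copies *c3a.2* and *c3a.3* were scarce, at no more than 0.224 CPM in any library, and neither was called with or without the block. Their log2FC were 0.11 (SE 0.36, adjp = 0.881) and -0.04 (SE 0.45, adjp = 0.968). Each was higher in the injured hemisphere in some pairs and lower in others. In the RefSeq assembly, *c3a.6*, *c3a.5*, *c3a.1*, *c3a.2* and *c3a.3* lie on a stretch of 9 annotated genes, and how reads that map to several such copies were divided between them was not tested.

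**Figure D4:**
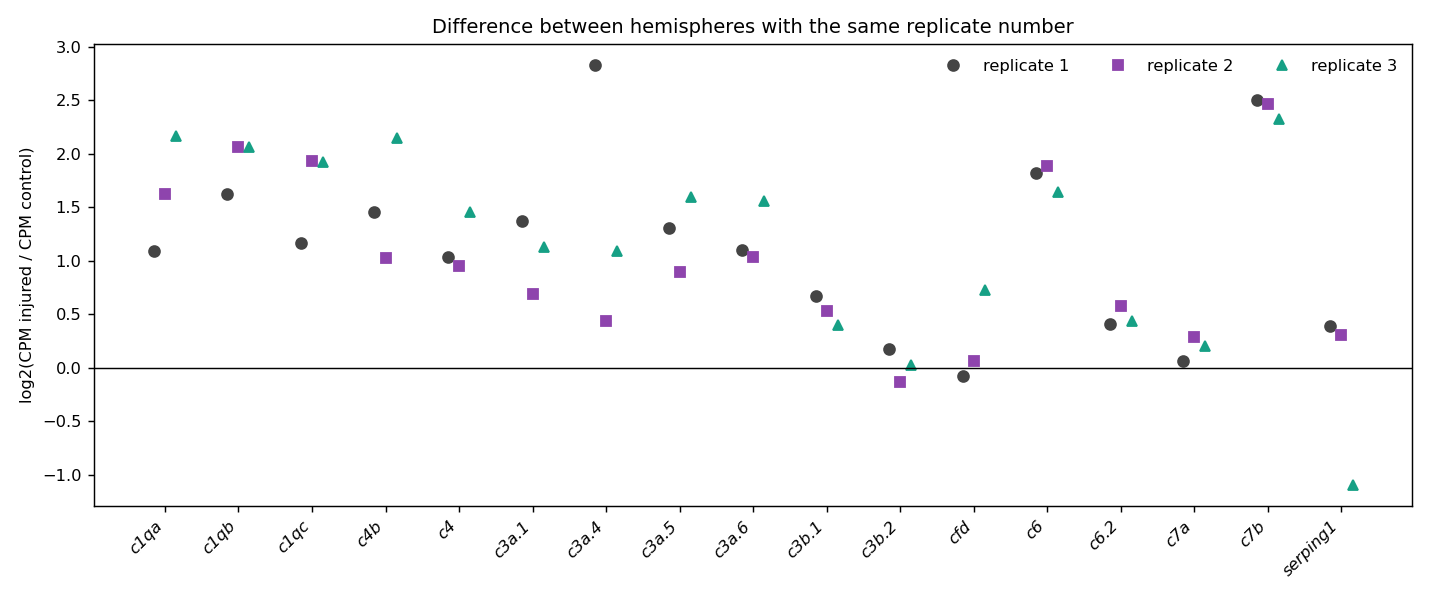
log2 ratio of CPM in the injured over the control hemisphere with the same replicate number (vertical axis), for the 9 components tested and related genes (horizontal axis), with 1 symbol per replicate number. All pairs lie above 0 for the C1q chains, both *c4* genes, *c3a.1*, *c3a.4*, *c3a.5*, *c3a.6*, *c3b.1*, both *c6* and both *c7* genes, while *cfd*, *c3b.2* and *serping1* have pairs on either side. The share of all genes with every pair above 0 was not counted.

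In the alternative pathway, factor D cleaves factor B when it is bound to C3. *cfd* (ENSDARG00000039579), which codes for factor D, was at 2.42, 2.66 and 2.80 CPM in injured replicates 1, 2 and 3, against 2.55, 2.53 and 1.70 CPM in control replicates 1, 2 and 3. The groups overlapped, control replicate 3 was the lowest, and the log2FC was 0.22 (SE 0.19, adjp = 0.494). *cfb* (ENSDARG00000055278), which codes for factor B, had 2, 1 and 4 reads in the injured and 1, 0 and 1 reads in the control libraries. No difference was detectable for *cfb* at this depth.

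*cfbl* (ENSDARG00000090730), a factor B-like gene with 1 annotated gene between it and *cfb* in the RefSeq assembly, was called higher. It was at 1.52, 4.52 and 1.49 CPM in injured replicates 1, 2 and 3, against 0.583, 0.636 and 0.505 CPM in control replicates 1, 2 and 3. The highest level was that of injured replicate 2, and the log2FC of 2.13 (SE 0.47, adjp = 0.0234) was 1.38 without it. Leaving out control replicate 1, 2 or 3 gave an edgeR adjp of 0.0792, 0.0635 and 0.0897. Properdin (*cfp*), which stabilizes the C3-cleaving enzyme of this pathway, rose to 35.6 ± 5.90 CPM in injured hemispheres, against 19.1 ± 4.99 CPM in control hemispheres (SD, n = 3 each). Its log2FC was 0.90 (SE 0.20, adjp = 0.0253), and its adjp in edgeR was 0.0660 and 0.0639 without injured replicates 1 and 2 and 0.0600 without control replicate 2.

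C6 and C7 join C5b at the start of the membrane pore, and each has a pair of genes here with unequal log2FC. *c6* (ENSDARG00000093052) was at 2.79, 3.85 and 2.87 CPM in injured replicates 1, 2 and 3, against 0.788, 1.04 and 0.920 CPM in control replicates 1, 2 and 3. The lowest injured library was well above the highest control library, and the within-pair log2 ratios, from 1.64 to 1.88, were close to each other. The log2FC was 1.78 (SE 0.19, adjp = 0.00227), and 1.61 to 1.89 with each library left out. Of the 22558 genes tested, 260 had a log2FC at or above that of *c6*, itself included.

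The second copy, *c6.2* (ENSDARG00000057113), was examined because the name *c6* is among its synonyms in RefSeq, and was added after its values had been seen. It was at 4.72, 5.92 and 5.44 CPM in injured and 3.55, 3.96 and 4.02 CPM in control replicates 1, 2 and 3, a log2FC of 0.48 (SE 0.12, adjp = 0.0356). The edgeR adjp was 0.108 and 0.0892 without injured replicates 2 and 3 and 0.114, 0.0843 and 0.0859 without control replicates 1, 2 and 3, and 0.0316 without injured replicate 1. The log2 ratio of *c6* to *c6.2* was -0.77 ± 0.15 in injured and -2.07 ± 0.13 in control hemispheres (SD, n = 3 each), a difference of 1.30 with no overlap.

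*c7a* (ENSDARG00000042172) was at 17.8, 27.1 and 24.5 CPM in injured replicates 1, 2 and 3, against 16.9, 22.1 and 21.3 CPM in control replicates 1, 2 and 3. Replicate 1 was the lowest in both conditions, and the groups overlapped. The log2FC was 0.20 (SE 0.17, adjp = 0.486). With replicate number as a block, *c7a* was called at a log2FC of 0.19 (SE 0.053, adjp = 0.0317), since each injured hemisphere was slightly above the control hemisphere of the same number, by log2 ratios of 0.07 to 0.29.

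*c7b* (ENSDARG00000057121) was at 49.2, 56.1 and 48.3 CPM in injured replicates 1, 2 and 3, against 8.64, 10.1 and 9.62 CPM in control replicates 1, 2 and 3. The groups did not overlap, and the log2FC was 2.43 (SE 0.087, adjp = 1.50e-04). The log2 ratio of *c7b* to *c7a* was 1.17 ± 0.264 in injured and -1.08 ± 0.0956 in control hemispheres (SD, n = 3 each), a difference of 2.25 with no overlap. Of the 3 paralogous pairs compared, those of *c7* and *c6* each had p = 0.1 in a two-sided exact permutation test, the smallest possible, and 0.15 after Benjamini-Hochberg adjustment over the 3 pairs. These pairs were chosen after their values had been seen. Of the later terminal components, *c8a*, *c8b* and *c8g* did not pass the test, with log2FC from -0.22 to 0.26, and *c9* was too scarce to be tested. *c5*, the source of C5b, had a log2FC of -0.15 (SE 0.32, adjp = 0.818) at no more than 0.472 CPM in any library.

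Receptors and regulators completed the list of other complement genes. Of the 61 genes written, 44 were matched to 1 gene and 35 were tested, of which 10 were called higher and 1 lower, with a median log2FC of 0.21. Among those called higher, *c1s* and *cd59* had been matched only through the study's list of changed RNAs. The table of names has them as *c1s.1* and *cd59a*, and no other copy of either was in the list of other complement genes. Over all genes, 11.6% were called higher and the median was -0.0038. The numbers called higher and lower were 16 and 4 with replicate number as a block, where 19.9% and 16.2% of all genes were called. The total of 11 fell to 7, 7 and 6 without injured replicate 2, control replicate 1 and control replicate 2.

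The anaphylatoxin receptor *c5ar1* rose to 2.72 ± 0.105 CPM in injured hemispheres, against 1.09 ± 0.251 CPM in control hemispheres (SD, n = 3 each), a log2FC of 1.31 (SE 0.19, adjp = 0.00547). The receptor of the C3a fragment, *c3ar1*, was called at a log2FC of 0.75 (SE 0.19, adjp = 0.035). Its adjp in edgeR was 0.0831 to 0.113 with any 1 library left out and 0.0511 without a filter on low counts, and the DESeq2 Wald test gave 0.0735. *itgb2* and *itgam.1* code for the chains of complement receptor 3, with which phagocytes bind C3 fragments. *itgb2* was at 55.4 ± 4.97 CPM in injured and 21.9 ± 3.45 CPM in control hemispheres (SD, n = 3 each), a log2FC of 1.34 (SE 0.12, adjp = 0.00121). *itgam.1* had a log2FC of 0.65 (SE 0.32, adjp = 0.23) and was called only with replicate number as a block, at 0.69 (SE 0.069, adjp = 6.60e-04). Replicate 1 was its lowest library in both conditions. The block also added the receptor list's *calr3a* and the regulator *rca2.2*, with log2FC of 0.18 and 0.21 in the fit without pairs (adjp = 0.128 and 0.0994).

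Of the regulators, *cd59*, which codes for a membrane protein that blocks the terminal pore, rose to 56.5 ± 9.58 CPM in injured hemispheres, against 25.4 ± 4.11 CPM in control hemispheres (SD, n = 3 each), a log2FC of 1.15 (SE 0.16, adjp = 0.00461). *susd4*, a regulator with complement control domains, was the gene called lower, at 44.0 ± 1.82 CPM in injured and 54.1 ± 4.19 CPM in control hemispheres (SD, n = 3 each), a log2FC of -0.30 (SE 0.066, adjp = 0.0249). Its adjp in edgeR was 0.0767 and 0.0820 without injured replicates 2 and 3 and 0.0700 and 0.0635 without control replicates 1 and 2. *csmd1a*, *csmd2* and *csmd3a*, which code for large membrane proteins of neurons with such domains, had log2FC of -0.24, -0.15 and -0.24 with adjp of 0.0939, 0.0597 and 0.103. *csmd2* was also called without injured replicate 1, with an adjp of 0.0247 in edgeR. All 3 were called lower with the block, with adjp of 0.00843, 0.0132 and 0.00159, and by the DESeq2 Wald test, with adjusted *p*-values of 0.0442, 0.0168 and 0.0351. Neuronal markers were compared as well. Of 8 neuronal markers, 5 were called lower and none higher, where 4.82% of all genes tested were called lower. Their sum was 7330 to 7727 CPM in injured and 8506 to 8581 CPM in control hemispheres. Of the called ones, *snap25a*, *snap25b*, *syt1a* and *slc17a7a* had been matched only through the study's list of changed RNAs. Among those matched by gene name, *map2* was called lower, and *elavl3*, *elavl4* and *gad2* were not called.

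Markers of other cells were also compared, and not all of their lists differed. Their counts stand beside 11.6% called higher and 4.82% called lower over all genes tested. Of 7 tested markers of fibroblasts and meninges, 5 were called higher, and the list summed to 218 to 329 CPM in injured and 84.7 to 114 CPM in control hemispheres. Of 7 matched genes of the list written for neutrophils, 4 were tested and 3 called higher. The list summed to 49.7 to 66.4 CPM in injured and 17.8 to 19.1 CPM in control hemispheres. Of their defining genes, *mpx* was not matched and *lyz* was at 0 reads in all 6 libraries. Whether reads of *lyz* could be counted in these data was not tested. The called genes were *mmp9*, *cpa5* and *csf3r*, and whether neutrophils were their source was not tested. *cpa5* was at 0.449, 1.70 and 0.403 CPM in injured replicates 1, 2 and 3, so its highest level was that of replicate 2. *mmp13a* was too scarce to be tested, with 17, 4 and 11 reads in injured and 0, 3 and 2 reads in control replicates 1, 2 and 3. *npsn*, another granule gene, had a log2FC of -0.27 (adjp = 0.291). Of 9 matched markers of hepatocytes and plasma proteins, the main source of circulating complement, 5 were tested and only the transferrin gene *tfa* was called. The list summed to 9.07 to 18.2 CPM in injured and 5.40 to 6.66 CPM in control hemispheres. The liver marker *fabp10a* was at 0.775 CPM or less in every library. Of 3 matched erythrocyte markers none was called, with sums of 42.8 to 61.4 CPM in injured and 46.4 to 64.6 CPM in control hemispheres. Of the other marker lists, 6 of 8 oligodendrocyte markers were called higher, with sums of 431 to 650 CPM in injured and 301 to 418 CPM in control hemispheres. Of 5 radial glia markers 4 were called higher, with sums of 1347 to 1572 CPM in injured and 1022 to 1090 CPM in control hemispheres. Likewise 4 of 6 endothelial markers were called higher, with sums of 184 to 206 CPM in injured and 135 to 143 CPM in control hemispheres. For T and B lymphocytes it was 1 of 7 tested, with sums of 8.43 to 16.6 CPM in injured and 4.73 to 9.04 CPM in control hemispheres. None of 5 skin markers was called, with sums of 29.7 to 40.1 CPM in injured and 14.96 to 51.2 CPM in control hemispheres. Among the called markers of these lists, *cpa5*, *plp1a*, *cx43* and *pecam1* had been matched only through the study's list of changed RNAs. The part of microglia and of these other cells in the levels of the complement components was not tested.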

How the data were processed

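Per the labels and the methods of the study, reads of 3 injured and 3 control hemispheres were mapped to GRCz11 with STAR, a read that mapped to several loci was kept at its best-scoring locus, and HTSeq (union mode) gave raw counts per gene, which the authors deposited as 1 file per library. Versions, strand setting and annotation release are not given in the sources used here. Rows that name no gene held 27.2% to 29.7% of reads (no feature) and 1.45% to 1.53% (more than 1 gene) and were left out. Reads on genes ranged from 59675791 to 91663196.

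Genes kept by filterByExpr were tested with edgeR 4.0.16 (R 4.3.3, glmQLFit and glmQLFTest, TMM, condition as the only term), with Benjamini-Hochberg adjustment over 22558 genes and a threshold of 0.05. The steps were tested on simulated data. The SE is the absolute log2FC divided by the square root of F. Alternatives were DESeq2 1.42.0, RLE or no scaling factors, other filters, Bonferroni adjustment, replicate number as a block, and libraries left out. Residuals of libraries with the same number correlated across genes at 0.519, 0.396 and 0.321, and others at -0.361 to -0.0832. The residuals were centred within each group, so positive values for libraries with the same number force negative values among the others. The numbers were treated as pairs in an alternative fit, although the labels do not say that a number is a fish. The correlations are across genes, which do not replicate the samples.

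The components, lists and markers were chosen with earlier results of these data known. Named are all components, genes of the list of other complement genes that were called or are paralogs or partners of a component, and the 5 genes nearest to the C1q profile (log2 CPM, prior count of 2). *c6.2*, the paralog ratios and the other genes named from that list, such as *csmd1a*, *calr3a* and *masp1*, were added after their values were seen. Of 116 cell type markers, 92 were matched. The symbols *c6*, *c1s* and *cd59* were matched only through the study's list of changed RNAs. So were the markers *spi1b*, *cpa5*, *pecam1*, *cx43*, *plp1a*, *snap25a*, *snap25b*, *syt1a* and *slc17a7a*. All of these genes were called here, so this way of matching can raise the counts of the lists that hold them.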

Additional observations from a re-analysis of the deposited data

How the results depend on the processing

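Of the 28 complement genes followed one by one, in 387 values under other settings, 316 kept their direction and side of the threshold, 51 were no longer called, 13 were called in addition and 7 changed sign. These values include the fit that leaves injured replicate 2 as the only injured library, a fit whose calls and counts cannot show that a difference holds. They also include Bonferroni adjustment, which reused the log2FC and *p*-values of the edgeR test. It could change no direction and add no call, and 12 of the values that were kept are from it. The sign changed for *serping1*, to 0.07 without injured replicate 3 and 0.15 without control replicate 3 (range with each library left out -0.278 to 0.147) and to 0.123 without both injured replicates with pineal transcripts, and for *c3b.2*, to -0.09 without injured replicate 1 or 3, -0.130 without control replicate 2 (range -0.130 to 0.267) and -0.536 without both injured replicates 1 and 3. The number of components called was 5 or 6 with each library left out. Bonferroni adjustment of the edgeR test called 0 components, 1 gene of the complement list and 51 of all genes. DESeq2 with Benjamini-Hochberg adjustment called 6 components, all higher, where 14.2% of the 21356 genes with an adjusted *p*-value were called higher. The unadjusted *p*-value of edgeR was below 0.05 for 6 components, and in either direction for 6890 of the 22558 genes tested. With the replicate block, 20 genes of the list and 8141 of all genes were called, against 11 and 3715. With each library left out, 6 to 9 genes of the list and 1797 to 3017 of all genes were called. Without both injured libraries with pineal transcripts, chosen after seeing the data, it was 6 and 1738. Without scaling factors, 3050 genes were called higher and 471 lower, so that 86.6% of calls were higher, against 70.7% with TMM, and the median log2FC of all genes was 0.0524. The difference of C1q to the microglia list, -0.118, was 0.694 with *csf1ra* and *csf1rb* only, 0.484 with the geometric mean and 0.777 without *apoeb*, and -0.222 to 0.005 with each library left out. With the replicate block, a paired sign-flip test gave the exact p = 0.75 for it. The replicate block added *c7a* to the components called and changed no other of their calls. Beyond the cases named, the cause of these changes was not tested.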
